A study of Mus musculus with 4 samples.

Results

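The genes of the EGF ligands and their ErbB receptors were followed through single cells of mouse mammary organoids, which are structures that mammary epithelium forms when it is grown in a gel. There were 10 members of the 32285 genes counted. The 6 ligand genes were Areg (amphiregulin), Ereg (epiregulin), Btc (betacellulin), Hbegf (heparin-binding EGF-like growth factor), Tgfa (transforming growth factor alpha) and Epgn (epigen), and the 4 receptor genes were Egfr, Erbb2, Erbb3 and Erbb4. They were chosen as a gene family, by name, with earlier results of these data known. Egf itself was not a member and was counted among the other ErbB ligands.

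EGF ligands are made as membrane-anchored precursors, and proteases of the ADAM family, chiefly ADAM17, cut them loose so that they can reach receptors on the same or on neighbouring cells. Ligand binding pairs the receptors, which switches on the RAS and ERK cascade. ErbB2 binds no known ligand and acts as a partner, and ErbB3 has little kinase activity of its own and relies on a partner. In the mammary gland amphiregulin is best known as the paracrine signal of estrogen: it is made by the luminal cells that carry estrogen and progesterone receptors, and the duct grows only when receptor is present in the surrounding stroma.

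Organoids were grown from mammary glands of aged female mice in MammoCult medium and Matrigel. The mice were either wild type or carried a truncating germline mutation in 1 allele of Brca2 (Brca2mut/WT), and the organoids were either left untreated (control) or exposed to hydroxyurea (HU), which starves cells of deoxynucleotides and stalls DNA replication. Each of the 4 combinations gave 1 droplet library (10x Chromium, version 3), made from cryopreserved organoids that were thawed, cultured again and dissociated with TrypLE, and the title of each library counts 2 replicates in it. All 4 groups shared the medium, the freezing and the dissociation, and the study sampled organoids at passage 0 and, after repeated pulses of HU, at passage 4. Which passage a library or a cell comes from, and whether a library pools both, is not given in the sources used here. Each library therefore pools its replicates, and no condition has a second library.

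Lineages were gated on genes outside the family. A cell was called basal at 500 or more CPM of Krt14 (CPM are a gene's counts scaled to a total of 1000000), HR+ luminal (hormone receptor positive) at under 300 CPM of Krt14 and 200 or more CPM of Cited1, Pgr and Esr1 together, and HR- luminal at under 300 CPM of Krt14 and under 50 CPM of that sum. Cells with 1000 to 6000 genes detected and under 5% mitochondrial counts were kept, which left 17360 of 33268 cells. The thresholds are those that the paper states. It reports more cells after quality control than the libraries hold, so that the kept cells are not its cell set. Of the kept cells, 331 were HR+ luminal, 13584 HR- luminal and 2326 basal, and 1119 met no gate. HR+ luminal cells numbered 117, 80, 73 and 61 in wild-type control, wild-type HU, Brca2mut/WT control and Brca2mut/WT HU, and this order of the libraries is kept wherever 4 values stand in a row.

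The libraries held 1062504699 unique molecular identifiers (UMIs) of genes in 33268 cells, and the kept cells of a library had a median of 24180 to 26893 UMIs. Brca2, the mutated gene, was at 5.34, 5.50, 4.27 and 3.92 CPM over the kept cells. It was lower in both mutant libraries, with separate counting intervals (3.87 to 4.70 CPM against 4.94 to 5.75 CPM in control, and 3.50 to 4.37 CPM against 5.07 to 5.95 CPM after HU). The counts do not tell the 2 alleles apart. The lineages carried their markers: the 6 HR+ luminal markers, among them Prlr and Foxa1, summed to 4072 to 6890 CPM in HR+ luminal, 163 to 198 CPM in HR- luminal and 1116 to 1316 CPM in basal cells, the 7 HR- luminal markers to 23190 to 27430 CPM in HR- luminal cells, and the 9 basal markers to 3415 to 3863 CPM in basal cells. Of the 5 stromal markers, Dcn (decorin) stood at 725, 476, 1558 and 1059 CPM in HR+ luminal cells, while Col3a1 and Lum had no UMI there, and Ptprc, which marks all leukocytes, had none in any lineage. Of the 7 HR- luminal markers, 6 were lower and 1 higher in HR+ than in HR- luminal cells. Most of their sum was the milk protein gene Csn3, at 18440 to 21630 CPM in HR- luminal cells. Csn3 still gave 773 to 1159 CPM in HR+ luminal and 1211 to 1774 CPM in basal cells. The part of free RNA or doublets in this was not tested. Cell barcodes were shared between libraries in 129 cases, which touched 136 kept cells.

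Areg, Ereg, Btc and Epgn lie next to each other on mouse chromosome 5 (build GRCm38, GENCODE M21), with no other protein-coding gene between neighbours. Epgn runs from 91027464 to 91035215, Ereg from 91074622 to 91093646 and Areg from 91139599 to 91148432, all on the plus strand, and Btc from 91357261 to 91402994 on the minus strand. The gaps are 39.4 kb between Epgn and Ereg, 46.0 kb between Ereg and Areg and 208.8 kb between Areg and Btc, and the 4 genes span 375.5 kb. Of the other ligands, Tgfa lies on chromosome 6 (86195223 to 86275719). Egfr (16752203 to 16918158) and Erbb2 (98412470 to 98437716) are on chromosome 11, Erbb3 on chromosome 10 (128567523 to 128589652) and Erbb4, which extends over 1075.9 kb, on chromosome 1 (68032186 to 69108059).

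The RefSeq promoter table (GRCm38.p6) matched 7 of the 10 members. The 120 bases before the transcription start are shown, 5′ to 3′ on the strand of the gene, for Areg and its neighbour Btc, both highest in HR+ luminal cells, and for Egfr, which was lower there than in both other lineages. They are at chr5:91139479-91139598 on the plus strand (Areg), chr5:91402995-91403114 on the minus strand (Btc) and chr11:16752083-16752202 on the plus strand (Egfr). Capitals mark the 2 motifs found there, the cAMP response element TGACGTCA, at 61 to 54 bases before the start of Areg, and the TATA box TATAAA, at 31 to 26 bases before it.
Areg: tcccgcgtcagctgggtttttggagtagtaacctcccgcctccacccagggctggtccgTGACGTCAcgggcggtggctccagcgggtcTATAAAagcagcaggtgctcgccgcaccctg
Btc: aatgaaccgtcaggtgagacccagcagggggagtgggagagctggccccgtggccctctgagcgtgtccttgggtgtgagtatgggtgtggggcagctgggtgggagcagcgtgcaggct
Egfr: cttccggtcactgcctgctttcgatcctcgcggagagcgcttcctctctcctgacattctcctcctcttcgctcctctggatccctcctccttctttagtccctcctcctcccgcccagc
The motifs searched in the 250 bases before the start were TGACGTCA and the AP-1 site TGACTCA on both strands, which do not overlap each other, and TATAAA on the strand of the gene. Of 32851 promoters in the table, 1.55% held TGACGTCA, 4.46% held TGACTCA and 7.59% held TATAAA. Among the 7 members, Areg alone held the cAMP response element, Areg and Epgn held a TATA box (86 to 81 bases before the start in Epgn), and none held the AP-1 site. A match of letters does not show that a factor binds there.

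The first question was in which lineage each ligand and receptor was made. The 4 ligand genes of chromosome 5 were higher in HR+ luminal than in HR- luminal cells by 4.12 to 6.83 on the log2 scale, Tgfa, Erbb2 and Erbb3 were also higher, and Egfr and Hbegf were lower. The comparison used summed counts of 4 libraries, edgeR's quasi-likelihood test with the library as a block, and Benjamini-Hochberg adjustment over all 13299 genes tested. Of the 9 members tested, 7 were higher and 2 lower, where 27.1% of all genes tested were higher and 29.9% lower. Erbb4 had too few counts to be tested. The 4 libraries are 4 different conditions, so that the p-values measure the spread of a lineage difference across them.

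**Figure D1:**
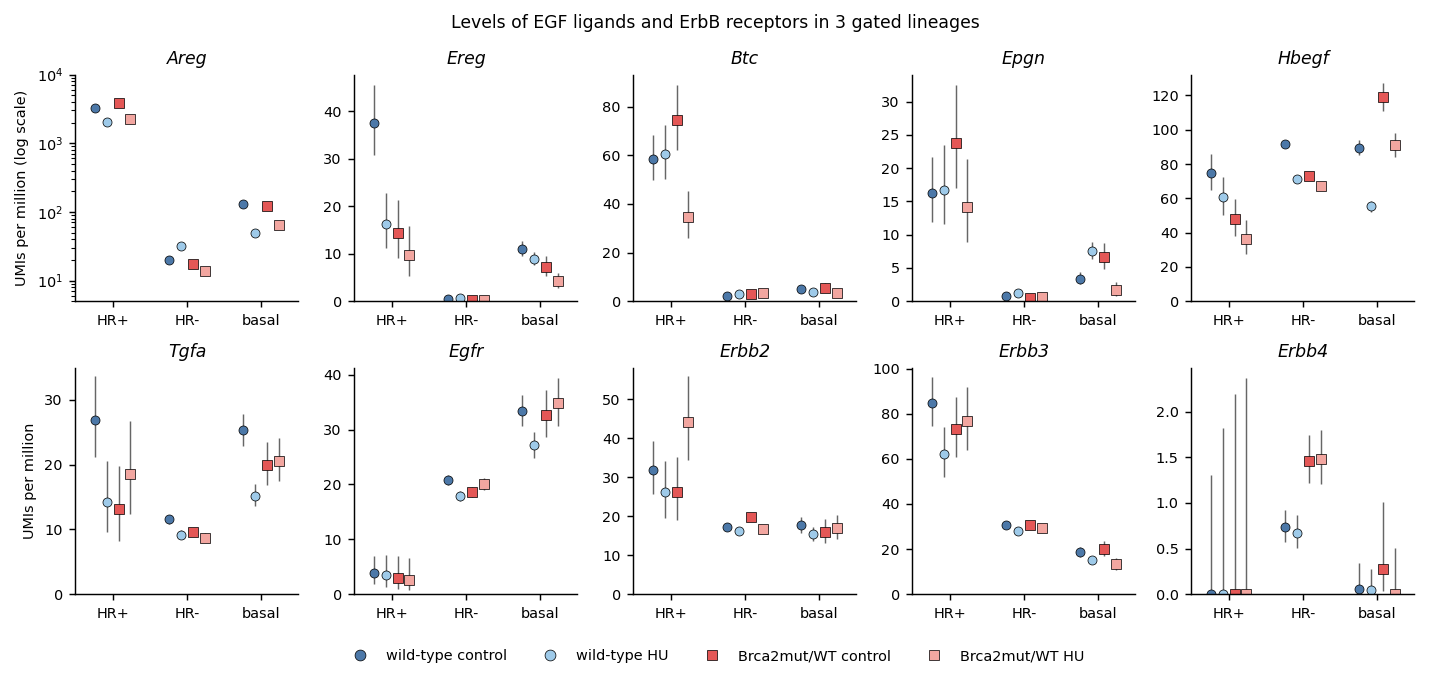
CPM of the 10 members in each of the 3 gated lineages (log axis for Areg only), 1 point for each of the 4 libraries. The 4 HR+ luminal points of Areg lie between 2029 and 3892 CPM, above all points of the other lineages, and the 4 HR+ luminal points of Egfr, between 2.56 and 3.90 CPM, lie below its points in the other lineages.

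Areg, the ligand on which ductal growth depends, was at 3223, 2029, 3892 and 2276 CPM in HR+ luminal cells (2855 ± 862, SD, n = 4 libraries). In HR- luminal cells it was at 20.2, 32.2, 17.6 and 14.0 CPM, and in basal cells at 132, 48.9, 121 and 65.4 CPM. No value of a lineage overlapped those of another, and the HR+ luminal level was the highest in each library. The log2 difference between HR+ and HR- luminal cells was 6.83 ± 0.37 (SE, edgeR adjusted p = 1.978e-08), and that between HR+ luminal and basal cells was 4.93 ± 0.34 (edgeR adjusted p = 3.67e-07). HR+ luminal cells were 1.91% of the kept cells and held 44.5% of their Areg UMIs.

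Ereg, a ligand of Egfr and Erbb4, was at 37.6, 16.3, 14.3 and 9.62 CPM in HR+ luminal cells, and basal cells had 11.01, 8.87, 7.16 and 4.23 CPM. In HR- luminal cells it stayed at 0.426, 0.632, 0.321 and 0.331 CPM, from 146 UMIs in all. HR- luminal cells were thus the low lineage in every library, and basal and HR+ luminal values overlapped across libraries although HR+ luminal cells were the higher in each of the 4. The log2 differences were 5.26 ± 0.29 for HR+ against HR- luminal cells (edgeR adjusted p = 2.383e-08) and 1.23 ± 0.25 for HR+ luminal against basal cells (edgeR adjusted p = 0.001769). The latter was 0.82 with an adjusted p of 0.1391 when cells with more genes and more mitochondrial counts were kept.

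Btc, which binds Egfr and Erbb4, was at 58.5, 60.6, 74.5 and 34.6 CPM in HR+ luminal cells. It was at 2.08, 2.85, 2.98 and 3.44 CPM in HR- luminal and 4.93, 3.93, 5.47 and 3.41 CPM in basal cells. The HR+ luminal values lay apart from both other lineages, which lay next to each other. The log2 differences were 4.12 ± 0.21 against HR- luminal (edgeR adjusted p = 1.32e-08) and 3.61 ± 0.23 against basal cells (edgeR adjusted p = 1.862e-07).

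Epgn, an Egfr ligand of low affinity, was at 16.3, 16.8, 23.9 and 14.1 CPM in HR+ luminal, 0.843, 1.17, 0.4999 and 0.576 CPM in HR- luminal and 3.35, 7.56, 6.60 and 1.64 CPM in basal cells. The 3 lineages did not overlap. The log2 difference was 4.31 ± 0.35 against HR- luminal cells (edgeR adjusted p = 6.974e-07) and 1.89 ± 0.34 against basal cells (edgeR adjusted p = 0.0007535). With a stricter gate for each lineage, which asked for 400 CPM of the 3 receptor genes in HR+ luminal cells, the difference from basal cells was 0.38 with an adjusted p of 0.6296, and with the wide cell filter it was 1.15 with an adjusted p of 0.05214.

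Hbegf and Tgfa, the ligands outside the cluster, had a different spread over the lineages. Hbegf was at 74.8, 60.6, 47.7 and 36.5 CPM in HR+ luminal, 91.5, 71.5, 73.2 and 67.2 CPM in HR- luminal and 89.6, 55.3, 119 and 90.8 CPM in basal cells. HR+ luminal cells were the lowest lineage in 3 of the 4 libraries, and the ranges overlapped. The log2 difference between HR+ and HR- luminal cells was -0.66 ± 0.20 (edgeR adjusted p = 0.0155), and the adjusted p rose to 0.07992 when counts were scaled by totals alone, to 0.05721 without the Brca2mut/WT HU library and to 0.06608 with the stricter gate. Tgfa was at 26.9, 14.3, 13.1 and 18.6 CPM in HR+ luminal, 11.5, 9.21, 9.59 and 8.70 CPM in HR- luminal and 25.3, 15.2, 19.9 and 20.6 CPM in basal cells. Here HR- luminal cells were lowest in every library, with a log2 difference of 0.69 ± 0.15 for HR+ against HR- luminal cells (edgeR adjusted p = 0.002015), and HR+ luminal and basal cells were not told apart (log2 difference -0.20 ± 0.15, edgeR adjusted p = 0.3217).

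Among the receptors, Egfr, which binds all 6 ligands, was at 3.90, 3.45, 2.98 and 2.56 CPM in HR+ luminal cells, from 27 UMIs in all. It was at 20.8, 17.9, 18.7 and 20.1 CPM in HR- luminal and 33.3, 27.1, 32.7 and 34.8 CPM in basal cells. The 3 lineages were separate, in the order basal, HR- luminal, HR+ luminal in every library. The log2 difference was -2.76 ± 0.16 between HR+ and HR- luminal cells (edgeR adjusted p = 3.217e-08) and 0.57 ± 0.07 between basal and HR- luminal cells (edgeR adjusted p = 2.403e-05). The lineage with the highest Areg therefore had the lowest Egfr, whose promoter is the third of the sequences above.

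Erbb3, the receptor of the neuregulins, ran the opposite way, at 84.7, 62.1, 73.3 and 77.0 CPM in HR+ luminal, 30.8, 27.9, 30.7 and 29.5 CPM in HR- luminal and 18.7, 15.2, 20.2 and 13.2 CPM in basal cells. The order HR+ luminal, HR- luminal, basal held in all 4 libraries. The log2 difference was 1.10 ± 0.10 for HR+ against HR- luminal cells (edgeR adjusted p = 1.985e-06) and -0.97 ± 0.10 for basal against HR- luminal cells (edgeR adjusted p = 3.063e-06). Erbb2, the shared partner receptor, was at 31.9, 26.1, 26.2 and 44.2 CPM in HR+ luminal, 17.3, 16.3, 19.9 and 16.7 CPM in HR- luminal and 15.4 to 17.6 CPM in basal cells. It was higher in HR+ luminal cells (log2 difference 0.64 ± 0.14, edgeR adjusted p = 0.001839), and basal and HR- luminal cells were not told apart (-0.22 ± 0.12, edgeR adjusted p = 0.1108), though Erbb2 passed as lower in basal cells without the Brca2mut/WT HU library (-0.26, adjusted p = 0.04275) and with the wide cell filter (-0.30, adjusted p = 0.006113). The ± values of log2 differences are SEs throughout.

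Erbb4, a neuregulin receptor that in the gland is tied to lactation, was among the 3 gated lineages seen almost only in HR- luminal cells. It had 356 UMIs there, 4 in basal and 0 in HR+ luminal cells, and stood at 0.734, 0.668, 1.46 and 1.48 CPM in HR- luminal cells. Cells that met no gate held 21 UMIs. Luminal cells at 50 to below 200 CPM of Cited1, Pgr and Esr1 had 1.15 ± 0.29 CPM (SD, n = 4 libraries). Those at 0 had 1.05 ± 0.42 CPM, so Erbb4 was not lower between the luminal gates. With the wide cell filter, a few HR+ luminal cells had an Erbb4 UMI, at most 1.18% of the cells counted in a library. Over the 4 libraries the HR- luminal level was 2.84-fold the level that a count of 3 UMIs would give in the HR+ luminal sum. The counting interval of the ratio to HR+ luminal cells had a lower limit of 2.30. The HR- luminal level was 13.4-fold that of basal cells, with a counting interval of 5.17 to 49.3. Counting intervals here and in all that follows are exact 95% intervals and cover counting error only.

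Basal and HR- luminal cells were also compared directly. Of the 9 members tested, 5 were higher in basal cells and 1 lower, beside 32.2% and 33.2% of all genes tested. Ereg was higher by 4.03 ± 0.25 (edgeR adjusted p = 5.203e-08), Epgn by 2.42 ± 0.32 (edgeR adjusted p = 3.214e-05), Areg by 1.90 ± 0.31 (edgeR adjusted p = 0.0001635) and Tgfa by 0.89 ± 0.11 (edgeR adjusted p = 2.107e-05) on the log2 scale, beside Egfr. Markers of HR+ luminal cells moved with them: 5 of the 6 were higher and 1 lower in basal than in HR- luminal cells, with a median log2 difference of 1.97, and their part in the result was not tested. Btc did not pass (0.51 ± 0.22, edgeR adjusted p = 0.05694), though it did under 5 of the alternatives, and Hbegf was not told apart (0.05 ± 0.17, edgeR adjusted p = 0.8075). Between HR+ luminal and basal cells 6 members were higher and 2 lower, beside 21.2% and 23.2% of all genes. Both comparisons with HR+ luminal cells share those sums. Scaling by totals in place of TMM factors moved the median log2 difference of all genes from -0.05 to 0.16 for HR+ against HR- luminal cells and from -0.01 to 0.13 for basal against HR- luminal cells, and the split of all genes from 3607 higher and 3983 lower to 5002 and 2816 in the former and from 4285 and 4420 to 5405 and 3452 in the latter.

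**Figure D2:**
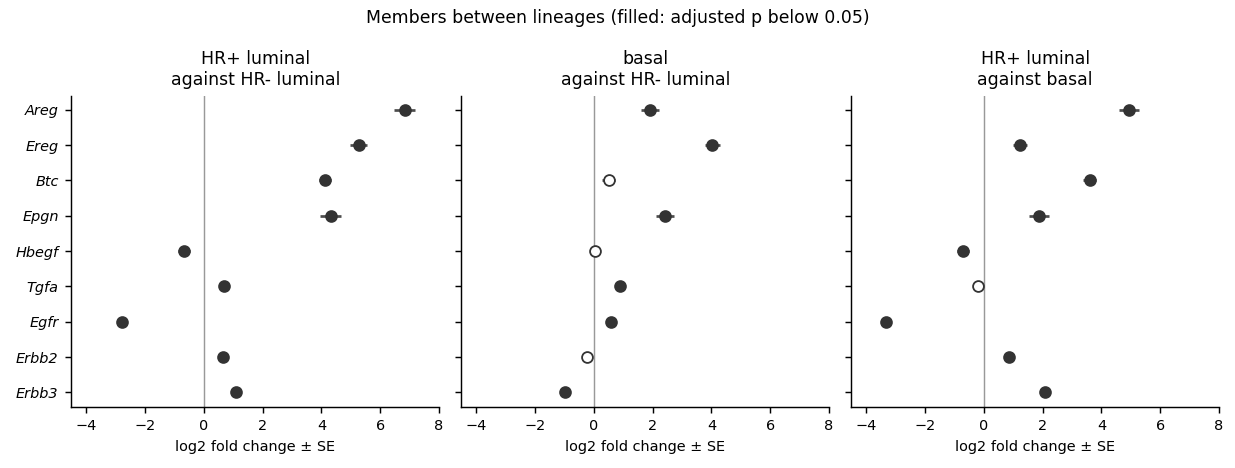
log2 difference of each member (± SE, edgeR) in the 3 lineage comparisons, with 1 marker for each comparison. For HR+ against HR- luminal cells the chromosome 5 ligands reach from 4.12 (Btc) to 6.83 (Areg), while Egfr lies at -2.76.

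The levels are averages, and cells differed within each gate. After each cell was thinned to 5000 UMIs, Areg had a UMI in 87.2%, 85.1%, 79.4% and 79.6% of HR+ luminal cells, in 2.95 to 6.39% of HR- luminal cells and in 7.77 to 15.1% of basal cells. Unthinned, the means were 91.9%, 15.98% and 28.8%. The thinned shares left out 38 of the HR+ luminal cells as too shallow, and the median depth of those used was 25489.0 to 29914.5 UMIs in HR+ and 25217.0 to 28502.0 UMIs in HR- luminal cells. The HR- luminal share is the lowest of the 3 and the level against which free RNA would have to be read. For Egfr the thinned shares were 0 to 1.59% in HR+ luminal, 7.86 to 10.1% in HR- luminal and 13.5 to 18.9% in basal cells, so that the lineage rich in Areg was also the one with the fewest Egfr-positive cells.

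Within HR+ luminal cells the median Areg level per cell was 1651 CPM and the highest 15510 CPM, and 51 of the 331 cells had no Areg UMI. The other ligands of the cluster appeared mainly where Areg did. All 51 cells with an Ereg UMI had Areg, as did 121 of 125 with Btc and 48 of 49 with Epgn. Of the 331 cells, 167 had UMIs of 2 or more of the 4 ligands of chromosome 5, and 5 had all 4. These counts are a description, since deeper cells show more of every gene.

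HR+ luminal cells were next ranked by Areg within each library and divided at the middle, and the other members were summed on each side. Btc was at 96.2 and 10.5, 95.7 and 16.7, 114 and 12.3, and 36.1 and 32.6 CPM in the upper and lower cells of the 4 libraries. It was thus several-fold higher beside high Areg in 3 libraries and about level in Brca2mut/WT HU. Ereg was at 58.2 and 11.3, 28.4 and 1.11, 19.4 and 6.17, and 14.2 and 3.11 CPM, higher on the Areg-rich side in all 4. Epgn was higher there too, at 23.4 and 7.25, 27.5 and 3.33, 31.1 and 12.3, and 19.7 and 6.21 CPM. The counting intervals of Ereg and Epgn were separate in both wild-type libraries and overlapped in both Brca2mut/WT libraries. The lower cells held 14, 1, 4 and 2 UMIs of Ereg and 9, 3, 8 and 4 UMIs of Epgn. Pgr, the progesterone receptor, was higher on the Areg-rich side in each library (224 and 157, 106 and 55.5, 264 and 151, and 190 and 126 CPM) while Cited1, a cofactor of the estrogen receptor, was lower (334 and 539, 551 and 856, 224 and 392, and 220 and 381 CPM). Esr1, the estrogen receptor gene, was at 38.6 and 37.1, 27.5 and 27.8, 33.0 and 23.15, and 60.1 and 26.4 CPM. Its counting intervals were separate in Brca2mut/WT HU only (45.3 to 78.2 and 15.4 to 42.3 CPM). All 3 genes belong to the gate. Prlr, outside it, was like Pgr higher on the Areg-rich side (1188 and 1050, 963 and 430, 2034 and 707, and 1434 and 867 CPM). Foxa1 was higher there in Brca2mut/WT HU only. The Areg-rich cells were deeper, with medians of 29686.5 and 23861.0, 28203.5 and 22210.0, 28253.0 and 17982.0, and 31601.5 and 19593.0 UMIs. The part of depth and of the HR+ luminal markers was not tested.

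The gate is a cut through a sum of UMI counts scaled to the total of a cell, and the members were followed along it in luminal cells. The class of a cell thus also depends on its depth, and the part of depth in the steps was not tested. Cells just inside the HR+ gate, at 200 to below 400 CPM of Cited1, Pgr and Esr1, had 2727 ± 783 CPM of Areg (SD, n = 4 libraries), against 2948 ± 1077 CPM in those at 400 CPM or more. Cells between the gates, at 50 to below 200 CPM, had 1075 ± 185 CPM, those above 0 and below 50 CPM had 90.3 ± 77.2 CPM and those at 0 had 15.1 ± 3.52 CPM. Areg thus increased with each step up to the gate, without overlap between libraries of neighbouring classes, and the last step lay within their spread. The HR- luminal markers summed to 11370 CPM in the cells between the gates, less than the 25280 CPM of cells at 0 and more than the 2003 CPM just inside the HR+ gate.

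Epgn did not keep to this order. It was at 27.1, 25.1, 36.3 and 18.9 CPM in cells at 200 to below 400 CPM of the receptor genes. In cells at 400 CPM or more it was at 6.7, 7.4, 3.2 and 6.6 CPM, from 10, 7, 2 and 4 UMIs. The library values of these classes did not overlap, but the counting intervals in Brca2mut/WT HU did (11.2 to 29.8 and 1.80 to 16.9 CPM). Between the gates Epgn was at 5.19, 27.8, 22.0 and 4.98 CPM. Egfr was at 16.2 ± 4.73 CPM in cells between the gates, 2.93 ± 1.22 CPM just inside and 3.51 ± 2.39 CPM at 400 CPM or more. Erbb3 was at 29.4 ± 1.20 CPM in cells at 0, 44.9 ± 4.47 CPM between the gates and 74.6 ± 10.1 CPM just inside the HR+ gate, and Erbb2 at 17.4 ± 1.65, 24.6 ± 4.201 and 27.6 ± 11.3 CPM. Both of these steps in Erbb3 exceeded the spread between libraries, and the step of Erbb2 into the HR+ gate did not. In cells above 0 and below 50 CPM, Erbb3 was at 33.1 ± 3.41 and Erbb2 at 19.9 ± 2.81 CPM, and library values overlapped those of cells at 0. At 400 CPM or more, Erbb3 was at 71.5 ± 20.3 and Erbb2 at 37.9 ± 6.81 CPM, and library values overlapped those just inside the gate.

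**Figure D3:**
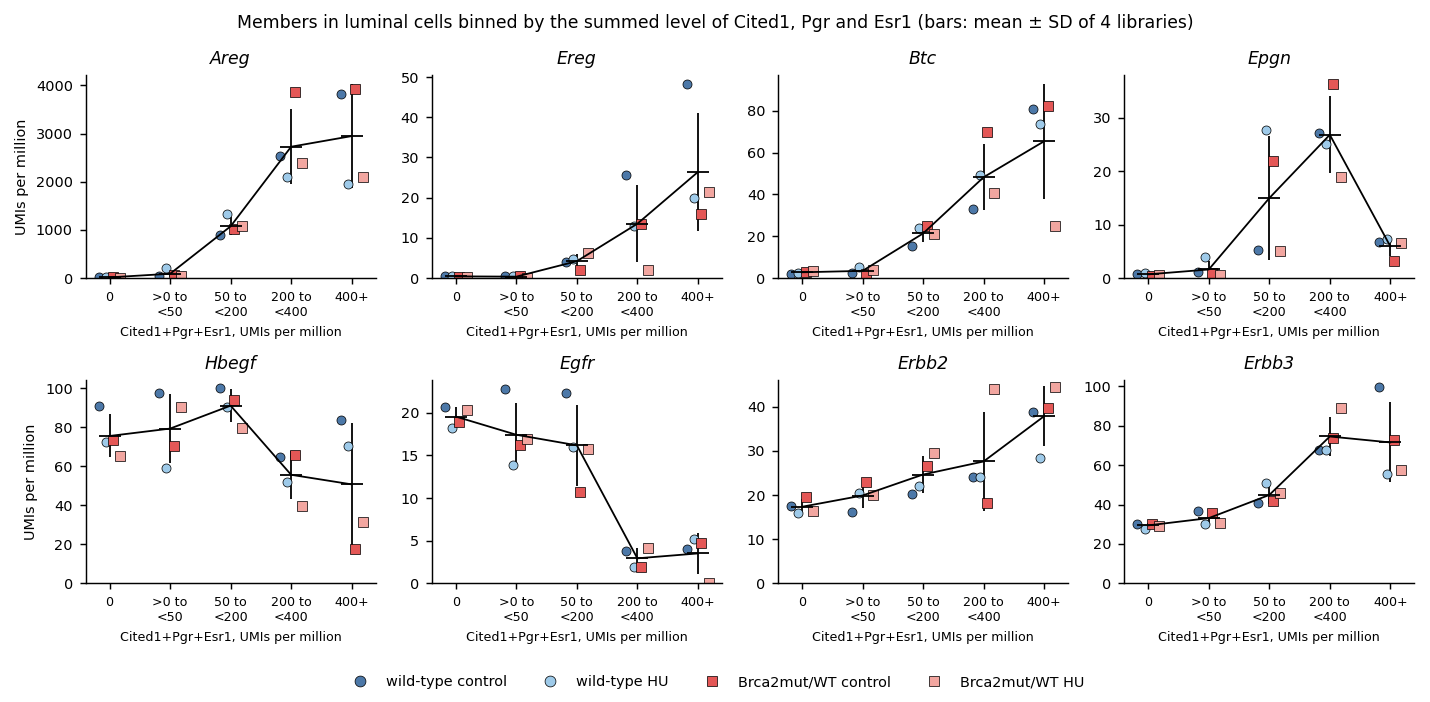
CPM of members in luminal cells grouped by the summed CPM of Cited1, Pgr and Esr1 (5 classes on the horizontal axis). Points are the 4 libraries, and the line gives their mean ± SD. Areg climbs from 15.1 CPM on average at 0 to 2727 CPM at 200 to below 400, Egfr drops from 16.2 to 2.93 CPM at the HR+ gate, and Epgn is lower in the last class than in the one before.

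Outside the HR+ gate, the cells that met no gate held 33.1% of the Areg UMIs of kept cells, HR- luminal cells 13.75% and basal cells 8.56%. In the HR- luminal and basal lineages much of the Areg sat in few cells. Of the 13584 HR- luminal cells, 70 (0.515%) had 10 or more Areg UMIs and together held 60.3% of the Areg of that lineage. Those 70 cells had 954 CPM of Prlr, Foxa1 and Wnt4 together, against 91.8 CPM in the other HR- luminal cells. Of the basal cells, 69 (2.97%) held 73.2% of the lineage's Areg, with 529 against 53.1 CPM of the same 3 markers. The markers of HR+ luminal cells therefore moved with Areg in cells that the gate placed elsewhere, and whether these were doublets or HR+ luminal cells with few receptor counts was not tested. When basal cells were limited to those with no UMI of Cited1, Pgr or Esr1, an alternative chosen after seeing the data, their mean Areg was 38.1 CPM in place of 91.8 CPM and their Ereg 6.86 CPM in place of 7.82 CPM. HR- luminal Areg changed from 21.0 to 15.1 CPM.

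By a rule that looked for the most similar genes, the genes with the highest correlation of log2(CPM + 1) with each member were taken over 35 sums of library, antibody tag and lineage with 20 or more cells (5 HR+ luminal, 16 HR- luminal, 14 basal). The points share libraries and the HR+ luminal sums are few, so that r mainly follows the lineage. Areg was most like Podxl (r = 0.96), Adam10 (r = 0.956) and Msx2 (r = 0.953), and Btc was like Prr15l (r = 0.953) and Cyp3a57 (r = 0.950). Egfr was most like Rflnb (r = 0.958), Aebp1 (r = 0.953) and Enpp1 (r = 0.953), Erbb3 like Stard10 (r = 0.943) and Ereg like Gsr (r = 0.957). Hbegf had the weakest likeness, led by Cfl2 (r = 0.802), with Tgfa next (Serinc2, r = 0.830).

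The rest of the pathway was read from fixed lists. Their counts stand beside 27.1% of all genes tested higher and 29.9% lower in HR+ than in HR- luminal cells. For basal against HR- luminal cells these shares were 32.2% and 33.2%. Of the other ErbB ligands, 1 of the 4 tested was higher and 2 lower in HR+ than in HR- luminal cells, and Nrg3 had no UMI. Nrg1, a ligand of Erbb3 and Erbb4, was at 2.48, 8.87, 2.98 and 1.92 CPM in HR+ luminal, 35.4, 33.0, 33.6 and 38.1 CPM in HR- luminal and 31.7, 38.1, 49.3 and 57.2 CPM in basal cells. HR+ luminal cells lay far below both other lineages, with a log2 difference of -3.29 ± 0.31 from HR- luminal cells (edgeR adjusted p = 2.483e-06). Nrg2 was lower by 3.32 (log2 difference -3.32 ± 0.31, edgeR adjusted p = 2.559e-06). HR+ luminal cells thus combined high Erbb3 with little Nrg1 and Nrg2. Nrg4, an Erbb4 ligand and the 1 gene of the list that was higher (3.29 ± 0.62, edgeR adjusted p = 0.0006481), is named after its values were seen. It stood at 0.354, 9.86, 4.17 and 7.70 CPM in HR+ luminal cells, against 0.367 to 0.476 CPM in the HR- lineage, so that wild-type control did not share the difference.

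Of 8 genes for ligand release, 3 were higher and 1 lower in HR+ than in HR- luminal cells (median log2 difference 0.01, against -0.05 over all genes). Adam10, a sheddase of betacellulin and EGF, was at 468, 372, 557 and 498 CPM in HR+ luminal, 53.5, 52.5, 54.3 and 52.4 CPM in HR- luminal and 128, 95.3, 97.6 and 91.6 CPM in basal cells. The lineages did not overlap, and the log2 difference between HR+ and HR- luminal cells was 2.94 ± 0.12 (edgeR adjusted p = 2.028e-09). Adam17, the main sheddase of amphiregulin, was at 27.6, 35.0, 29.8 and 25.01 CPM in HR+ and 25.5, 23.7, 25.4 and 24.9 CPM in HR- luminal cells. It was not told apart between them (0.03 ± 0.10, edgeR adjusted p = 0.8466) and is named for its role. Adam15 was higher by 1.63 ± 0.11 (edgeR adjusted p = 1.289e-07), and in basal against HR- luminal cells 4 genes of the list were higher and 2 lower, among them Furin (-0.78 ± 0.07, edgeR adjusted p = 1.997e-06), which trims precursor proteins.

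Of 19 adaptors and kinases downstream of the receptors, 8 were higher and 5 lower in HR+ than in HR- luminal cells (median 0.21). Over all genes tested, 27.1% were higher and 29.9% lower there. In basal against HR- luminal cells 5 of the list were higher and 3 lower (median 0.09), beside 32.2% and 33.2% of all genes. Hras, which encodes a GTPase that relays the receptor signal, was higher in HR+ luminal cells by 1.23 ± 0.07 (edgeR adjusted p = 3.46e-08) and in basal cells by 1.57 ± 0.07 (edgeR adjusted p = 1.929e-09). Of 11 genes that restrain the receptors, 4 were higher and 5 lower in HR+ luminal cells (median -0.60), and 6 higher and 3 lower in basal cells (median 0.37), each against HR- luminal cells. The phosphatase gene Ptpn1 was at 206, 173, 225 and 260 CPM in HR+ luminal and 31.8, 34.0, 31.97 and 34.7 CPM in HR- luminal cells (log2 difference 2.48 ± 0.09, edgeR adjusted p = 1.326e-09). Lrig1, which drives ErbB receptors to degradation, was lower by 2.29 (log2 difference -2.29 ± 0.25, edgeR adjusted p = 7.711e-06), and in basal cells Cblb, a ubiquitin ligase, was higher by 2.37 ± 0.10 (edgeR adjusted p = 2.074e-09).

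Of 16 genes that answer ERK activity or feed back on it, 3 were higher and 9 lower in HR+ than in HR- luminal cells, with a median of -1.29 against -0.05 over all genes. In basal against HR- luminal cells 5 were higher and 10 lower, with a median of -0.84 against -0.01. Etv5, a transcription factor gene switched on by ERK, was at 33.7, 24.1, 24.4 and 30.8 CPM in HR+ luminal, 154, 131, 139 and 147 CPM in HR- luminal and 50.5, 45.5, 44.5 and 49.3 CPM in basal cells, a log2 difference of -2.55 ± 0.08 between the luminal lineages (edgeR adjusted p = 3.085e-10). Phlda1 was lower in HR+ luminal cells (-2.33 ± 0.12, edgeR adjusted p = 1.074e-08), and Spry4 (-3.01 ± 0.22, edgeR adjusted p = 1.816e-07) and the phosphatase gene Dusp4 (-1.87 ± 0.10, edgeR adjusted p = 1.264e-08) were lower in basal cells. HR- luminal cells thus had more Etv5 than both other lineages, more Phlda1 than HR+ luminal cells, and more Spry4 and Dusp4 than basal cells.

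Members were also compared within the HR- luminal lineage. Cycling cells, at 300 or more CPM of Mki67, Top2a, Birc5, Ccnb2 and Cenpf together, were set against cells below 50 CPM. Of 10 members tested, 1 was higher and 4 lower in cycling cells, beside 26.6% and 27.3% of 13899 genes. Hbegf, an early-response ligand that stays partly on the membrane, was at 50.6, 44.8, 38.4 and 33.8 CPM in cycling and 94.3, 74.0, 76.5 and 70.2 CPM in non-cycling cells. It was lower in cycling cells of each library without overlap (log2 difference -1.03 ± 0.06, edgeR adjusted p = 2.04e-09). Of the 7 immediate early genes 5 were lower in cycling cells and none higher, as were all 7 HR- luminal markers, and their part in the difference was not tested. Tgfa was at 20.9, 9.35, 15.99 and 14.1 CPM in cycling and 10.6, 8.85, 8.95 and 8.42 CPM in non-cycling cells, higher in each library by a factor that was smallest in wild-type HU (log2 difference 0.59 ± 0.13, edgeR adjusted p = 0.001027).

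Areg was at 21.9, 8.36, 7.24 and 11.3 CPM in cycling and 19.3, 33.0, 19.9 and 15.0 CPM in non-cycling HR- luminal cells, lower in 3 of 4 libraries (log2 difference -0.92 ± 0.23, edgeR adjusted p = 0.003602). The difference was -0.55 with an adjusted p of 0.05044 without wild-type HU, and -0.39 with an adjusted p of 0.1333 under the wide cell filter. Of all HR- luminal cells, 70 held 60.3% of the Areg UMIs, and their part in the difference was not tested. Egfr (-0.34 ± 0.09, edgeR adjusted p = 0.004783) and Erbb3 (-0.18 ± 0.07, edgeR adjusted p = 0.03202) passed as lower, and Erbb3 lost its call under 5 alternatives and Egfr without wild-type control (adjusted p = 0.05202). Without wild-type control, and likewise without wild-type HU, 3 members in place of 5 passed. Under the wide cell filter Erbb4 passed as higher (0.54, edgeR adjusted p = 0.007652) and Epgn as lower (-0.61, edgeR adjusted p = 0.02834). That filter kept 735, 547, 771 and 664 cycling cells, in place of 246, 206, 280 and 200.

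The upper and lower tertiles of HR- luminal cells by the immediate early genes Fos, Fosb, Egr1, Jun, Junb, Ier2 and Atf3 were compared as well, since dissociation raises these genes and several EGF ligands answer the same signals. Of 10 members, 3 were higher and 4 lower in the upper tertile, beside 21.5% and 21.4% of 13654 genes. Hbegf was at 148, 117, 106 and 110 CPM in the upper and 58.2, 40.2, 50.3 and 35.3 CPM in the lower tertile. It was higher in all 4 libraries without overlap (log2 difference 1.35 ± 0.07, edgeR adjusted p = 2.561e-06). Areg went the other way, at 13.7, 21.1, 5.81 and 14.8 CPM in the upper and 33.2, 33.2, 26.4 and 16.5 CPM in the lower tertile (-1.07 ± 0.22, edgeR adjusted p = 0.003979). Epgn (-1.62 ± 0.30, edgeR adjusted p = 0.001982), Ereg (-0.93 ± 0.30, edgeR adjusted p = 0.03067, lost under 4 alternatives) and Tgfa (-0.43 ± 0.11, edgeR adjusted p = 0.008737) were lower too, while Erbb3 (0.32 ± 0.04, edgeR adjusted p = 0.0002617) and Egfr (0.32 ± 0.05, edgeR adjusted p = 0.001101) were higher. Without the library block the adjusted p was 0.1059 for Ereg and 0.05325 for Tgfa, and 0.07913 for Erbb3 in the cycling comparison. Median depth was 22412.0 to 26567.0 UMIs in the upper and 25385.0 to 27477.5 UMIs in the lower tertile. The tertiles were cut within each library, across its antibody tags. Of all HR- luminal cells, 70 held 60.3% of the Areg UMIs, and the part of these cells and of the tags was not tested.

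HU and control, and the 2 genotypes, were compared within each lineage from 1 library each, without a test. A member is called below where the libraries differed by 1.5-fold or more with separate counting intervals. In HR+ luminal cells Areg was lower after HU in both genotypes, with 2029 CPM (1967 to 2092) against 3223 CPM (3157 to 3289) in wild type and 2276 CPM (2202 to 2352) against 3892 CPM (3798 to 3987) in Brca2mut/WT. These are 0.630 and 0.585 of the control level, or log2 ratios of -0.67 and -0.77. The ratios were -0.42 and -0.51, under 1.5-fold, with the wide cell filter, and -0.44 and -0.47 when the cells of antibody tag 4 were left out of the wild-type or the Brca2mut/WT control library. The wild-type call held under 9 of 12 alternatives and the Brca2mut/WT call under 8 of the 11 that could change it, since tag 2 of Brca2mut/WT control held no HR+ luminal cell. Tag 4 held 36 of the 117 wild-type control and 32 of the 73 Brca2mut/WT control HR+ luminal cells, with 3960 and 4591 CPM of Areg, and 12 of 80 and 30 of 61 after HU, with 1895 and 2475 CPM. The key of the tags to mice or passages was not found, so that HU and the make-up of a library cannot be told apart.

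**Figure D4:**
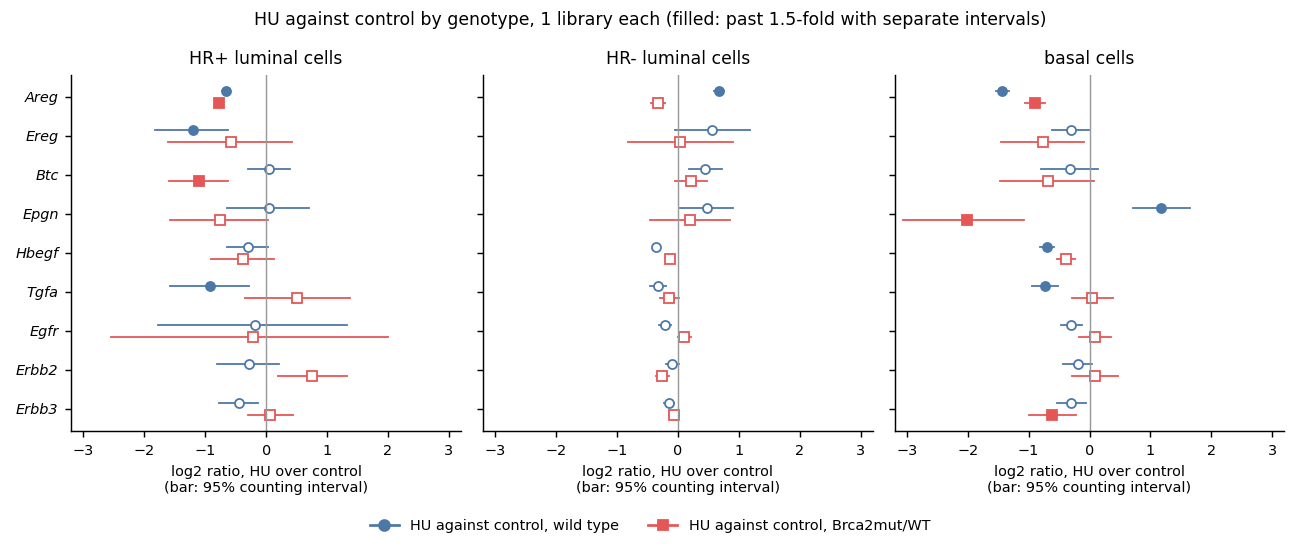
log2 ratio of HU over control for each member in 3 lineages, with the exact 95% counting interval, for wild type and Brca2mut/WT (1 library per condition, no test). Areg in HR+ luminal cells lies at -0.67 and -0.77, and Epgn in basal cells at 1.18 in wild type and -2.01 in Brca2mut/WT.

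In wild-type HR+ luminal cells 3 members were called lower after HU, Areg, Ereg and Tgfa, beside 4.17% of all genes called in either direction. Ereg was at 16.3 CPM (11.2 to 22.8) against 37.6 CPM (30.8 to 45.5), and the call held under all 12 alternatives, while that of Tgfa held under 6. In Brca2mut/WT Areg and Btc were called lower, beside 3.56% of genes, with Btc at 34.6 CPM (26.0 to 45.2) against 74.5 CPM (62.0 to 88.8). The Btc call was lost with the wide cell filter (log2 ratio -0.53 in place of -1.11) and in cells with 1 antibody tag (-0.72). Between genotypes, Ereg, Hbegf and Tgfa were called lower in Brca2mut/WT control than in wild-type control (3.23% of genes), and after HU Btc and Hbegf lower and Erbb2 higher (3.94%). Hbegf, at 47.7 against 74.8 CPM and 36.5 against 60.6 CPM, was lower in the mutant library of both pairs. The control call was lost with the wide cell filter (log2 ratio -0.34 in place of -0.65) and without tag 1 of wild-type control (-0.30) or tag 3 of Brca2mut/WT control (-0.51), and the call after HU was lost under 4 alternatives, with ratios of -0.55 to -0.45 in place of -0.73. Tgfa between control libraries lost its call under 6 alternatives, and Btc after HU under 2. The Erbb2 call held under 4 of 12 alternatives.

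In HR- luminal cells the calls were fewer. Areg was higher after HU in wild type, at 32.2 CPM (31.0 to 33.5) against 20.2 CPM (19.4 to 21.1), beside 4.17% of genes called, and no member was called in Brca2mut/WT (3.41%). The wild-type ratio turned from 0.67 to -0.19 when antibody tag 2 was left out of the HU library. It was 0.01 with the stricter gate, and the call held under 6 of 12 alternatives. HR- luminal cells with no UMI of Cited1, Pgr or Esr1 had 17.88 CPM of Areg in wild-type HU against 18.28 CPM in wild-type control. Those above 0 and below 50 CPM of these genes had 204.7 against 44.52 CPM, with HR+ luminal markers at 678.4 against 224.5 CPM. The part of these cells was not tested. Erbb4 was called higher in Brca2mut/WT control than in wild-type control (1.46 CPM, 1.22 to 1.75, against 0.734 CPM, 0.576 to 0.921), beside 2.64% of genes. After HU, Erbb4 was called higher (1.48 CPM, 1.21 to 1.80, against 0.668 CPM, 0.505 to 0.867) and Areg and Epgn lower, beside 2.78%. The Areg ratio was -0.35 without tag 2 of wild-type HU and -0.49 with the stricter gate, in place of -1.20, and that of Epgn was -0.53 without tag 4 of wild-type HU, -0.78 without tag 1 of Brca2mut/WT HU and -0.82 with the stricter gate, in place of -1.02, and none of these was a call. Without tag 2 of the Brca2mut/WT library the log2 ratios of Erbb4 were -0.22 in control, in place of 0.997, and 0.26 after HU, in place of 1.15. The control ratio was 0.52, also not a call, without tag 1 of wild-type control. Neither Erbb4 call thus held without the cells of tag 2 of its Brca2mut/WT library.

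In basal cells Areg was lower after HU in both genotypes, at 48.9 CPM (45.8 to 52.0) against 132 CPM (126 to 137) in wild type and 65.4 CPM (59.7 to 71.5) against 121 CPM (113 to 130) in Brca2mut/WT. The wild-type log2 ratio of -1.43 was -0.33 with the wide cell filter and -0.44 with the stricter gate, and neither was a call. In wild-type control 30 of the 757 basal cells held 75.4% of the Areg UMIs, and basal cells with no UMI of Cited1, Pgr or Esr1 had 37.33 CPM after HU against 50.02 CPM in control. In wild type Hbegf and Tgfa were also called lower and Epgn higher, beside 8.67% of genes, and in Brca2mut/WT Epgn and Erbb3 lower, beside 3.64%. Epgn was at 3.35 CPM (2.52 to 4.35) in wild-type control, 7.56 CPM (6.40 to 8.88) in wild-type HU, 6.60 CPM (4.85 to 8.77) in Brca2mut/WT control and 1.64 CPM (0.847 to 2.86) in Brca2mut/WT HU, the last from 12 UMIs. Between genotypes, Epgn was called higher and Ereg lower in control (3.61%), and Hbegf higher and Ereg and Epgn lower after HU (7.54%). Of the 47 Epgn UMIs in basal cells of Brca2mut/WT control, 41 came from the 117 cells of tag 4, and without them the HU ratio was 0.15 for Epgn, in place of -2.01, and 0.69 for Areg, in place of -0.89. Over the 10 members, 3 lineages and 4 comparisons 28 values were called. The share of all genes called in a single comparison was 2.64% to 8.67%, and Erbb4, which was called in HR- luminal cells, was not among those genes. Only 3 of the 28 calls held under all 12 alternatives. They were Ereg in HR+ luminal cells after HU in wild type, Epgn in basal cells after HU in wild type, and Epgn in basal cells between genotypes after HU.

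The cells of the 4 antibody tags differed within each library in the family's genes. In HR- luminal cells Areg was at 12.5, 14.9, 10.2 and 62.0 CPM in tags 1 to 4 of wild-type control and at 7.0, 88.8, 7.4 and 72.8 CPM in wild-type HU. It was at 4.6, 8.3, 4.5 and 78.3 CPM in Brca2mut/WT control and 5.8, 13.2, 7.5 and 36.6 CPM in Brca2mut/WT HU. Tags 1 and 3 thus stayed low and alike in every library, tag 4 was high in all 4, and tag 2 was high in wild-type HU. Erbb4 was highest in tag 2 of the Brca2mut/WT libraries, at 4.7 and 5.8 CPM, against 0.6 to 1.0 CPM in their other tags. Hbegf in tags 2 and 4 of Brca2mut/WT HU was at 141.7 and 167.3 CPM, against 42.0 and 53.0 CPM in tags 1 and 3, while the tags of Brca2mut/WT control were within 69.1 to 80.0 CPM.

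**Figure D5:**
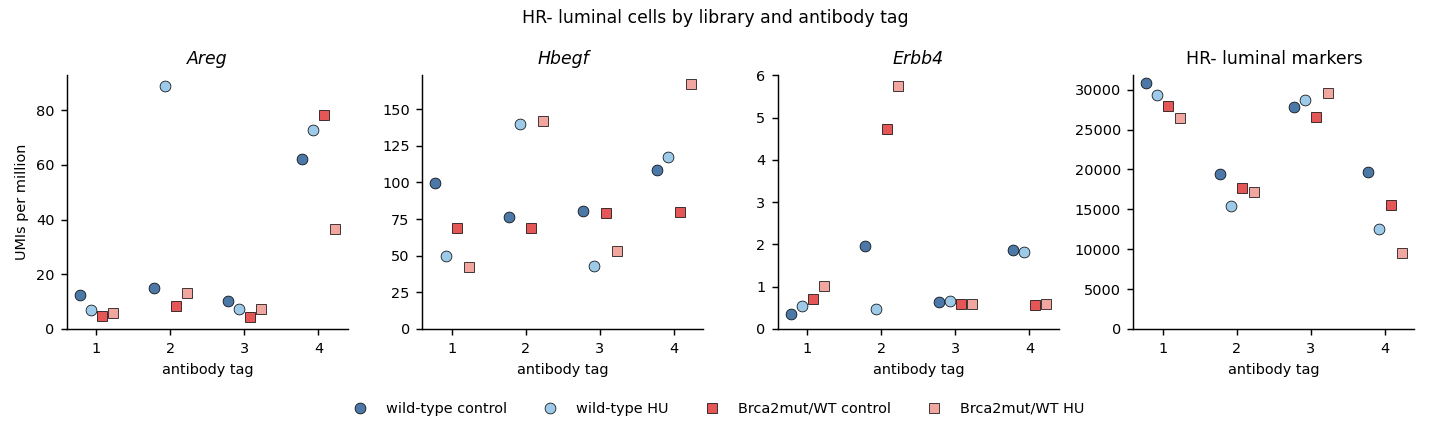
CPM of members in HR- luminal cells of the 4 antibody tags, by library. Areg lies between 4.5 and 12.5 CPM in tags 1 and 3 and between 36.6 and 78.3 CPM in tag 4, and Erbb4 reaches 4.7 and 5.8 CPM in tag 2 of the Brca2mut/WT libraries.

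Other gene groups moved with the tags. The 7 HR- luminal markers summed to 26430 to 30840 CPM in tags 1 and 3 and to 9508 to 19650 CPM in tags 2 and 4, and the 16 feedback and ERK-responsive genes to 2168 to 2909 CPM and 3523 to 4451 CPM. The 6 HR+ luminal markers summed to 123 to 156 CPM in tags 1 and 3, to 209, 280, 394 and 492 CPM in tag 4 of the 4 libraries and to 321 CPM in tag 2 of wild-type HU, the pools in which Areg was high. Tag 2 held 4.80%, 17.4%, 18.5% and 13.7% of the HR- luminal cells of the 4 libraries. What share these differences have in the contrasts between libraries was not tested beyond leaving each tag out.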

How the data were processed

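Droplet single-cell libraries of mouse mammary organoids were made with the 10x Chromium version 3 kit, 1 for each of 4 conditions. The deposited values were counts: the authors counted UMIs per gene and cell with Cell Ranger against mm10 (version 6.0.2 in the submitters' processing notes, 6.1.1 in the file headers) and applied no normalization to the deposited tables. Seurat 4.0 and R 4.1.3 appear in the same notes and made no value used here. Each table also holds counts of 4 antibody tags, which entered no gene total. Neither the labels nor the paper gives their key.

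Cells with 1000 to 6000 detected genes and under 5% mitochondrial counts were kept, which are the thresholds that the paper gives. A tag was called at 150 or more UMIs and 20% or more of the tag UMIs of a cell, and no doublet caller was run. Counts were summed per library and gated lineage (12 sums, or 8 in comparisons within HR- luminal cells) and tested with edgeR 4.0.16 (R 4.3.3; TMM factors, glmQLFit, glmQLFTest, filterByExpr) with the library as a block, at an adjusted p of 0.05. The block reflects the design, since each library holds every lineage. The SE of a log2 difference was computed from its F statistic. DESeq2 1.42.0 was an alternative, and others changed scaling, gene filter, block, cell filter, gate and libraries used. CPM are counts divided by the total of the sum. Conditions have 1 library each and were compared by exact Poisson intervals, called at 1.5-fold, without p-values. Shares of cells with a UMI have exact Clopper-Pearson intervals after thinning to 5000 UMIs. Nothing states whether the sums are separate cultures, so that p-values measure only the spread between these libraries. The fits were tested on simulated data. Python 3.11.15 with numpy 2.4.6, scipy 1.17.1, pandas 2.3.3 and matplotlib 3.10.9 was used.

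The members and the gene lists were chosen with earlier results of these data known. All members are named. Of each list, the 2 genes with the greatest change past the threshold in either comparison with HR- luminal cells could be named, and for each member the 3 genes most correlated with it among 8985 genes. Some results of these rules are not reported here.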

Additional observations from a re-analysis of the deposited data

Results flagged for a closer look

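Epgn in basal cells changed in opposite directions after HU in the 2 genotypes. The log2 ratio of HU over control was 1.18 in wild type and -2.01 in Brca2mut/WT, and the ratio of Brca2mut/WT over wild type was 0.98 in control and -2.21 after HU. The difference was not tested, since each condition has 1 library. Without antibody tag 4 of Brca2mut/WT control, which gave 41 of the 47 UMIs of that library's basal cells, the HU ratio in Brca2mut/WT was 0.15.

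Areg moved in opposite directions between lineages after HU in wild type, with log2 ratios of -0.67 in HR+ luminal, 0.67 in HR- luminal and -1.43 in basal cells. The difference was not tested. The HR- luminal ratio was -0.19 without antibody tag 2 of wild-type HU and 0.01 with the stricter gate. Its call held under 6 of 12 alternatives. The basal ratio was -0.33 with the wide cell filter and -0.44 with the stricter gate, and the HR+ luminal ratio was -0.42 with the wide cell filter, -0.44 without tag 4 of wild-type control and -0.56 without tag 1 of wild-type HU, all under 1.5-fold.

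Hbegf after HU was lower in Brca2mut/WT than in wild type in HR+ luminal cells (log2 ratio -0.73) and higher in basal cells (0.72). The difference was not tested. The HR+ luminal call was lost under 4 alternatives, with ratios of -0.55 to -0.45, and the basal call under 3, with ratios of 0.42 to 0.52.

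The cells that met no gate, which entered no lineage comparison, held 33.1% of the Areg UMIs of kept cells while making up 6.45% of the cells. Such cells occurred in every library, control and HU alike. Their share of a library's Areg UMIs was lowest in wild-type control (24.8%) and highest in wild-type HU (39.4%).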

How the results depend on the processing

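The counts of members passing the test were 9 for HR+ against HR- luminal cells, 6 for basal against HR- luminal, 8 for HR+ luminal against basal, 5 for cycling and 7 for immediate early classes. Leaving out a library gave 9 to 10, 6 to 9, 7 to 8, 3 to 5 and 6 to 7. DESeq2 gave 3 for cycling, where Areg and Erbb3 lost their calls, and without wild-type control or wild-type HU it was also 3. Under the wide cell filter, cells had under 10% mitochondrial counts and no upper limit on genes. The thinned share of HR+ luminal cells with Areg was 82.9%, against 91.9% without thinning and 88.3% under the wide cell filter, and that of HR- luminal cells 4.36%, against 15.98% without thinning.

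The libraries hold every lineage, so that the pairing of sums comes from the design. Without the replicate block the counts were 9, 6, 8, 4 and 5. The block changed no other call among members than those of Erbb3 in cycling and Ereg and Tgfa in the immediate early comparison, and over all genes the last comparison gave 1481 higher and 1430 lower in place of 2929 and 2919. DESeq2 gave 1606 and 1942 there. The stricter gate gave 1840 genes higher in HR+ luminal than basal cells in place of 2823.

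Differences that changed sign did not pass the test in the main comparison, and with the changed sign only Erbb4 in cycling cells passed (wide filter). They were Hbegf in basal against HR- luminal cells (-0.13 without Brca2mut/WT control, -0.03 without Brca2mut/WT HU, leave-one-out range -0.13 to 0.24), Tgfa in HR+ luminal against basal cells (0.004124, wide filter), in cycling cells Erbb4 (0.0839 without Brca2mut/WT HU, range -0.66 to 0.0839, 0.54 wide filter), Epgn (0.0365 without Brca2mut/WT control, range -0.77 to 0.0365), Ereg (0.30 wide filter) and Erbb2 (0.0184 wide filter), and in the immediate early comparison Btc (-0.11 without wild-type HU, -0.09 without Brca2mut/WT HU, -0.17 wide filter, range -0.11 to 0.14). Among condition ratios, leaving out an antibody tag turned Btc in HR+ luminal cells, Brca2mut/WT against wild type after HU, to 0.11 (tag 2 of wild-type HU), Areg in HR- luminal cells after HU in wild type to -0.19 (the same tag) and Erbb4 in HR- luminal control cells to -0.22 (tag 2 of Brca2mut/WT control). In basal cells, tag 4 of Brca2mut/WT control turned Areg and Epgn after HU to 0.69 and 0.15 and Epgn between control libraries to -1.18, and Ereg between control libraries became 0.0760 under the wide filter and 0.33 without tag 4 of wild-type control. The cause was not tested. With cells lacking any UMI of Cited1, Pgr or Esr1, an alternative chosen after seeing the data, basal Areg was 38.1 CPM and Btc 3.302 CPM, against 91.8 and 4.44 CPM. Depth limits Egfr in HR+ luminal cells (27 UMIs), Erbb4 outside HR- luminal cells and Epgn in Brca2mut/WT HU basal cells (12 UMIs).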
